A study of Rattus norvegicus with 10 samples.

Results

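The NADPH oxidase genes described here are Cybb, Cyba, Ncf1, Ncf4 and Nox4, a list of 5 named subunit genes. The list was chosen with earlier results of these data known. All 5 were among the features of the single-nucleus matrices, and 4 of the 5 were among the 14166 genes of the bulk RNA-seq table. Nox4 in bulk tissue was not analysed here. The study took the ipsilateral dentate gyrus of young adult male Sprague-Dawley rats 3 weeks after lateral fluid percussion injury, a moderate traumatic brain injury (TBI) given by a fluid pulse onto the dura through a craniectomy. Bulk RNA-seq covered 3 TBI rats and 3 sham rats, which had the craniectomy and all handling but no pulse. Single-nucleus RNA-seq (snRNA-seq) covered 2 TBI rats and 2 control rats, of which 1 was sham and 1 was naïve, with no surgery at all. Each library came from 1 rat. No group carried a transgene, and TBI and sham rats alike had isoflurane anaesthesia and a dose of the analgesic buprenorphine, which went with the surgery that the naïve rat did not have.

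NADPH oxidases move electrons from NADPH across a membrane onto oxygen and so make superoxide, from which hydrogen peroxide forms. In phagocytes, microglia included, the core sits in the membrane as a pair of proteins, the catalytic gp91phox (Cybb) and its stabilizing partner p22phox (Cyba). It is silent until cytosolic subunits, among them the organizer p47phox (Ncf1) and p40phox (Ncf4), move to it together with a small Rac GTPase. Nox4 encodes another catalytic subunit, which also pairs with p22phox but needs no cytosolic organizer and is known from kidney, vessel wall and fibroblasts.

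The promoters of the genes that follow show what the sequence next to their start sites holds. RefSeq promoters (build GRCr8) were found for 4 of the 5 members. The 250 bases before the annotated start were searched on both strands for GAGGAA, the core of the site of the myeloid factor PU.1, for the composite site of PU.1 and IRF factors, which can overlap that core, for TGANTCA (AP-1) and for the NF-kB site. The sequences of the phagocyte members with a promoter in the table are printed on the gene's own strand, with matches in capitals.
Cybb (chrX:16065066-16065315, minus strand): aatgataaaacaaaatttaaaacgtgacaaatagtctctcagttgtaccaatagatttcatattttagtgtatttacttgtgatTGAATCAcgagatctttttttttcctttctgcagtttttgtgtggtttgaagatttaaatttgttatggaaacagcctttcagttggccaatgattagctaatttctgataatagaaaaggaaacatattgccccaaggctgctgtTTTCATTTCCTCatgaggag
Cyba (chr19:67404215-67404464, minus strand): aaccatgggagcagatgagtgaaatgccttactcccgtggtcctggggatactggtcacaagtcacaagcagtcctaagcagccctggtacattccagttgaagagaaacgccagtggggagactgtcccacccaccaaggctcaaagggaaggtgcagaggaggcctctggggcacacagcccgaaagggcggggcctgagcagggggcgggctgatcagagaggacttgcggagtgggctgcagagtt
Ncf1 (chr12:28121635-28121884, plus strand): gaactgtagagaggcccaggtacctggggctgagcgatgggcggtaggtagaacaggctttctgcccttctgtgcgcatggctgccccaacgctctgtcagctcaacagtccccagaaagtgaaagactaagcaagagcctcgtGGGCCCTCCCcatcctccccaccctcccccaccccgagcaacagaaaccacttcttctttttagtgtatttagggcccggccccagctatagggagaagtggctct

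In Cybb the composite PU.1 and IRF motif was matched on the opposite strand, from 20 to 11 bases before the start, and it overlapped a match of the GAGGAA core from 14 to 9 bases before it. Of 33469 promoters of the same length, 2.48% held the composite motif and 23.3% held the core. Cybb also had an AP-1 match from 166 to 160 bases before the start, a motif held by 6.34% of promoters. Ncf1 had 1 match of the open NF-kB pattern, on the opposite strand from 106 to 97 bases before the start. That pattern was held by 16.4% of promoters. Cyba and Nox4 had no match to these letters in this window. A match describes letters and not bound protein, and Spi1, which encodes PU.1, is given with the regulators below.

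All 4 members measured in bulk dentate gyrus stood higher in TBI, by 2.20-fold to 2.79-fold, and in each of them every TBI library lay above every sham library. Over all 14166 genes such a separation with TBI higher was found for 11.7%. None of the 4 passed the FDR of 0.01 in edgeR's quasi-likelihood test adjusted over all genes, and neither did any other gene (0%, smallest adjusted p = 0.196), while 1360 genes reached p under 0.05 before adjustment. Of the alternatives, limma on the deposited values called 0 genes and DESeq2 called 169, with Cyba and Ncf1 among the 1.17% of genes that it called as higher in TBI. The values are counts per 1e6 counts of the library (CPM), worked back from the log2 CPM that the authors deposited.

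Cybb, the catalytic subunit, was at 1.75, 4.83 and 3.43 CPM in sham libraries 1, 2 and 3 and at 5.77, 5.06 and 13.8 CPM in TBI libraries 1, 2 and 3. The highest sham library and the lowest TBI library were close to each other, and TBI library 3 stood well above the rest. The means were 3.34 ± 1.54 CPM in sham and 8.21 ± 4.85 CPM in TBI (SD, n = 3 each), with a Log2FC of 1.25 (SE 0.49, edgeR adjusted p = 0.472). DESeq2 gave an adjusted p of 0.231. Without TBI library 3 the Log2FC of Cybb was 0.66.

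Cyba, the partner that every membrane pair of this kind needs, was at 5.83, 6.24 and 4.99 CPM in sham and at 11.4, 19.2 and 14.9 CPM in TBI. The lowest TBI library lay well clear of the highest sham library. The means were 5.68 ± 0.636 CPM and 15.2 ± 3.95 CPM (SD, n = 3 each), a Log2FC of 1.38 (SE 0.22). Cyba had rank 21 of 14166 genes in that test (edgeR adjusted p = 0.196), and DESeq2 gave it an adjusted p of 7.68e-05.

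Ncf1, the organizer, was at 11.9, 17.2 and 12.5 CPM in sham and at 32.4, 61.0 and 25.2 CPM in TBI. TBI library 2 held the highest value and TBI library 3 the lowest of the TBI group, the reverse of their order for Cybb. The means were 13.9 ± 2.88 CPM and 39.5 ± 19.0 CPM (SD, n = 3 each), a Log2FC of 1.48 (SE 0.34, edgeR adjusted p = 0.208). DESeq2 gave an adjusted p of 0.00219.

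Ncf4, which binds phosphoinositides through its PX domain, was at 1.30, 1.10 and 1.12 CPM in sham and at 2.30, 2.87 and 2.74 CPM in TBI. Its libraries spread little within either group. The means were 1.17 ± 0.108 CPM and 2.64 ± 0.298 CPM (SD, n = 3 each), a Log2FC of 1.14 (SE 0.28, edgeR adjusted p = 0.239). DESeq2 gave an adjusted p of 0.0618.

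**Figure D1:**
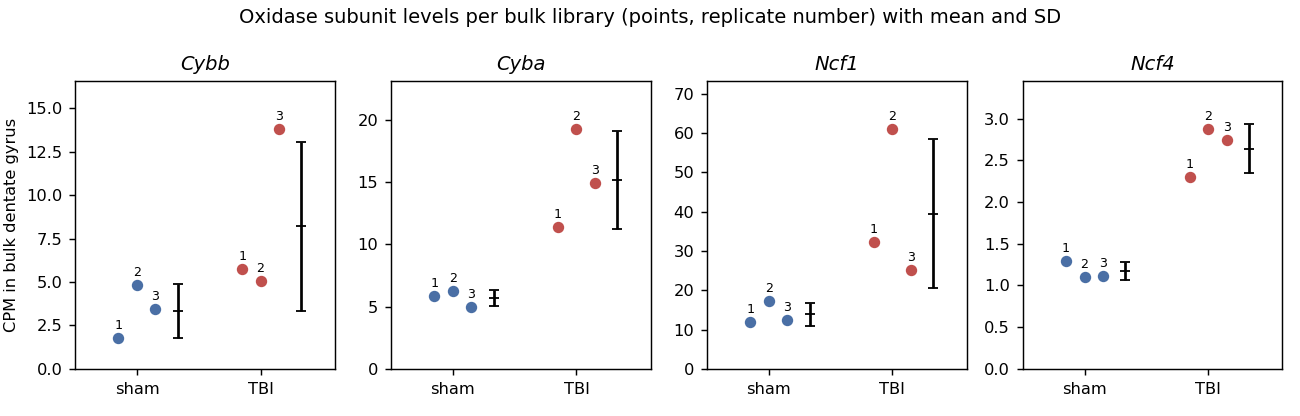
CPM of the 4 members in each bulk library, as points numbered by replicate, with the mean and SD beside them. Every TBI point lies above every sham point, Cybb peaks in TBI library 3 at 13.8 CPM, and Cyba, Ncf1 and Ncf4 peak in TBI library 2 at 19.2, 61.0 and 2.87 CPM.

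The bulk rats were split by their date of injury into 2 periods. Rats dated up to the end of June are called spring here (sham 1, sham 2 and TBI 1). The later ones are called autumn (sham 3, TBI 2 and TBI 3). Within spring the log2 CPM difference between TBI and sham was 0.98 for Cybb, 0.91 for Cyba, 1.18 for Ncf1 and 0.94 for Ncf4. Within autumn it was 1.28, 1.76, 1.65 and 1.33 in the same order. All 4 members were higher in TBI within both periods. The difference between the periods, tested as a group-by-period term chosen after seeing the data, was largest for Cyba, at 0.83 (SE 0.42) on the log2 scale, and the edgeR adjusted p was 0.9997 for each of the 4 members. That fit leaves 2 residual degrees of freedom.

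Over the 6 bulk libraries Cyba followed Ncf4 (Pearson's r = 0.97) and Ncf1 (r = 0.93) more closely than it followed Cybb (r = 0.66), and Cybb and Ncf1 were the least alike pair (r = 0.51). These values describe 6 libraries that also share the difference between sham and TBI, so no p is given. The genes whose log2 CPM was most like that of Cybb were Rasl12, Plac8 and Ddx20 (r from 0.990 to 0.993). For Cyba they were Tcf3, Arpc1b and C2 (r from 0.998 to 0.999). Ncf1 was nearest to Nckap1l, Itgb2, the leukocyte integrin beta chain, and Laptm5 (r from 0.996 to 0.998). Among the genes nearest to Ncf4 were Xaf1 and Ccdc125 (r = 0.994 and 0.992).

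Markers of several cell types moved with the groups in the same libraries. The summed level of 10 microglial markers was 310 to 319 CPM in sham and 489, 837 and 507 CPM in TBI libraries 1, 2 and 3, and all 10 stood higher in TBI. TBI library 3 stood apart from the others in markers of cells of the vessel wall and its surroundings. There the 5 fibroblast markers summed to 962 CPM, against 171 and 78.1 CPM in TBI libraries 1 and 2 and 34.5 to 74.3 CPM in sham. The 5 markers of perivascular macrophages, phagocytes that line vessels, summed to 49.0 CPM there, against 17.4 and 18.9 CPM in the other TBI libraries and 10.6 to 12.2 CPM in sham. Of 8 neutrophil markers 3 were in the table, and they summed to 5.53 to 27.0 CPM in sham and 12.9 to 20.8 CPM in TBI. Of 5 monocyte markers 3 were in the table (Vcan, Plac8 and Fn1), and 2 of them stood higher in TBI. These 3 summed to 61.4 to 95.4 CPM in sham and 85.7, 80.3 and 212 CPM in TBI libraries 1, 2 and 3. Vcan is also in the list of oligodendrocyte precursor markers. Markers of other cells moved too. All 8 astrocyte markers in the table stood higher in TBI, with sums of 4104 to 4977 CPM in sham and 6950 to 10003 CPM in TBI, as did all 8 pericyte markers (123 to 151 CPM and 158 to 345 CPM) and all 9 endothelial markers (178 to 192 CPM and 189 to 351 CPM, which overlapped). The 4 smooth muscle markers summed to 54.4 to 71.8 CPM in sham and 92.1 to 782 CPM in TBI. Going the other way, 0 of 9 oligodendrocyte markers stood higher in TBI. Their sums were 5577 and 6920 CPM in sham libraries 1 and 3, 17643 CPM in sham library 2, and 5259 to 8167 CPM in TBI. Of the neuronal markers in the table, 2 of 9 glutamatergic and 1 of 8 GABAergic ones stood higher in TBI. The part of these markers in the oxidase differences was not tested. In bulk tissue more cells of a type and more RNA per cell cannot be told apart.

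Set against the summed microglial markers of its own library, Cyba was 1.83%, 1.98% and 1.61% of the sum in sham and 2.32%, 2.30% and 2.94% in TBI. This ratio was higher in every TBI library, with a log2 difference of 0.48 (two-sided exact permutation p = 0.1, and 3 against 3 libraries cannot give less). Ncf1 was 3.74%, 5.44% and 4.02% of the sum in sham and 6.62%, 7.29% and 4.96% in TBI, where the groups overlapped (log2 difference 0.52, exact permutation p = 0.2). Ncf4 was 0.406%, 0.349% and 0.360% in sham and 0.471%, 0.343% and 0.541% in TBI (log2 difference 0.26, exact permutation p = 0.4). Cybb was 0.550%, 1.53% and 1.11% in sham and 1.18%, 0.605% and 2.72% in TBI (log2 difference 0.35, exact permutation p = 0.7). Without TBI library 3 the difference of Cybb was -0.21, and without sham library 1 it was -0.06. Over these 4 ratios the smallest p was that of Cyba, and none could reach 0.05 in this design.

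**Figure D2:**
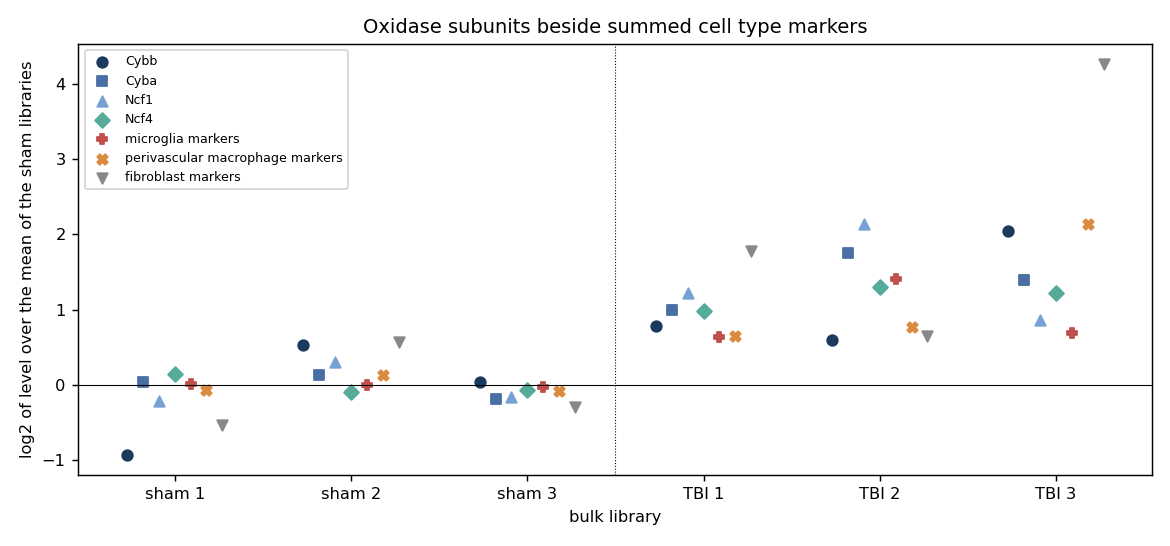
Level of each member and of 3 summed marker lists in the 6 bulk libraries, as log2 over the mean of the sham libraries. In TBI library 3 Cybb lies beside the perivascular macrophage markers and the fibroblast markers lie highest, while in TBI library 2 Ncf1, Cyba, Ncf4 and the microglial markers lie above Cybb.

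Among 14 further oxidase genes, 8 were in the bulk table. Of these, 3 stood higher in every TBI library than in every sham library, a pattern found for 11.7% of all genes. Among those, 2 had an unadjusted edgeR p under 0.05, a rule that 8.2% of all genes met as higher in TBI. Of the 8 genes 0 passed the FDR of 0.01. Their median Log2FC was -0.05, against -0.003 over all genes. Rac2, the blood cell GTPase of the phagocyte complex, was at 3.28, 5.43 and 3.48 CPM in sham and at 6.51, 13.5 and 7.58 CPM in TBI (Log2FC 1.15, SE 0.34, edgeR adjusted p = 0.314). Its libraries did not overlap between groups, and it peaked in TBI library 2. Cybc1, the chaperone that Cybb and Cyba need for assembly, was at 20.6 to 22.5 CPM in sham and 26.8 to 29.7 CPM in TBI (Log2FC 0.32, SE 0.10, edgeR adjusted p = 0.360). The broadly expressed Rac1 was at 349.2 to 392.8 CPM in sham and 371.7 to 376 CPM in TBI (Log2FC -0.04, SE 0.09), and Rac3 had a Log2FC of -0.06 (SE 0.14). Noxa1, an activator of Nox1, was at or under 0.361 CPM in sham and 0.559 to 0.589 CPM in TBI (Log2FC 1.29, SE 0.58, edgeR adjusted p = 0.547). Duox1, Duox2 and Noxred1 were near or under 1 CPM on average and overlapped between groups, with Log2FC of -0.32, -0.51 and -0.68.

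All 15 genes of a list of oxidase regulators were measured in bulk, and 11 stood higher in TBI with a list median Log2FC of 0.29. By an unadjusted p under 0.05, 5 were higher and 0 lower, against a background of 8.2% and 1.4% of all genes, and 0 passed the FDR of 0.01. Hvcn1, the voltage-gated proton channel that balances the charge moved by the oxidase, was at 0.729, 0.939 and 0.865 CPM in sham and at 3.25, 5.39 and 2.22 CPM in TBI. Its groups were far apart, with a Log2FC of 2.05 (SE 0.41, edgeR adjusted p = 0.196). Vav1, an exchange factor that loads Rac with GTP in blood cells, was at 2.44 to 2.75 CPM in sham and at 6.96, 11.3 and 5.98 CPM in TBI (Log2FC 1.61, SE 0.28, edgeR adjusted p = 0.196). Arhgdib, which holds Rac in the cytosol, was at 7.81 to 12.3 CPM in sham and 17.7 to 23.6 CPM in TBI (Log2FC 1.01, SE 0.21, edgeR adjusted p = 0.196). Spi1, which encodes the PU.1 factor whose motif stands in the Cybb promoter, was at 4.42 to 5.43 CPM in sham and at 11.7, 19.1 and 7.83 CPM in TBI (Log2FC 1.32, SE 0.32, edgeR adjusted p = 0.237).

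The enzymes that remove superoxide and peroxide were centred near no difference. All 21 were measured, 12 stood higher and 9 lower in TBI, and their median Log2FC was 0.03. Gpx1, a glutathione peroxidase, was at 36.6 to 45.8 CPM in sham and 48.1 to 67.9 CPM in TBI (Log2FC 0.54, SE 0.15, edgeR adjusted p = 0.285), and it was the 1 gene of the list with an unadjusted p under 0.05. Over all genes 8.2% were higher and 1.4% lower in TBI by that rule. Gclm, the modifier subunit of the enzyme that starts glutathione synthesis, had a Log2FC of -0.23 (SE 0.13), and Gsr, which restores glutathione, had a Log2FC of -0.15 (SE 0.09).

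**Figure D3:**
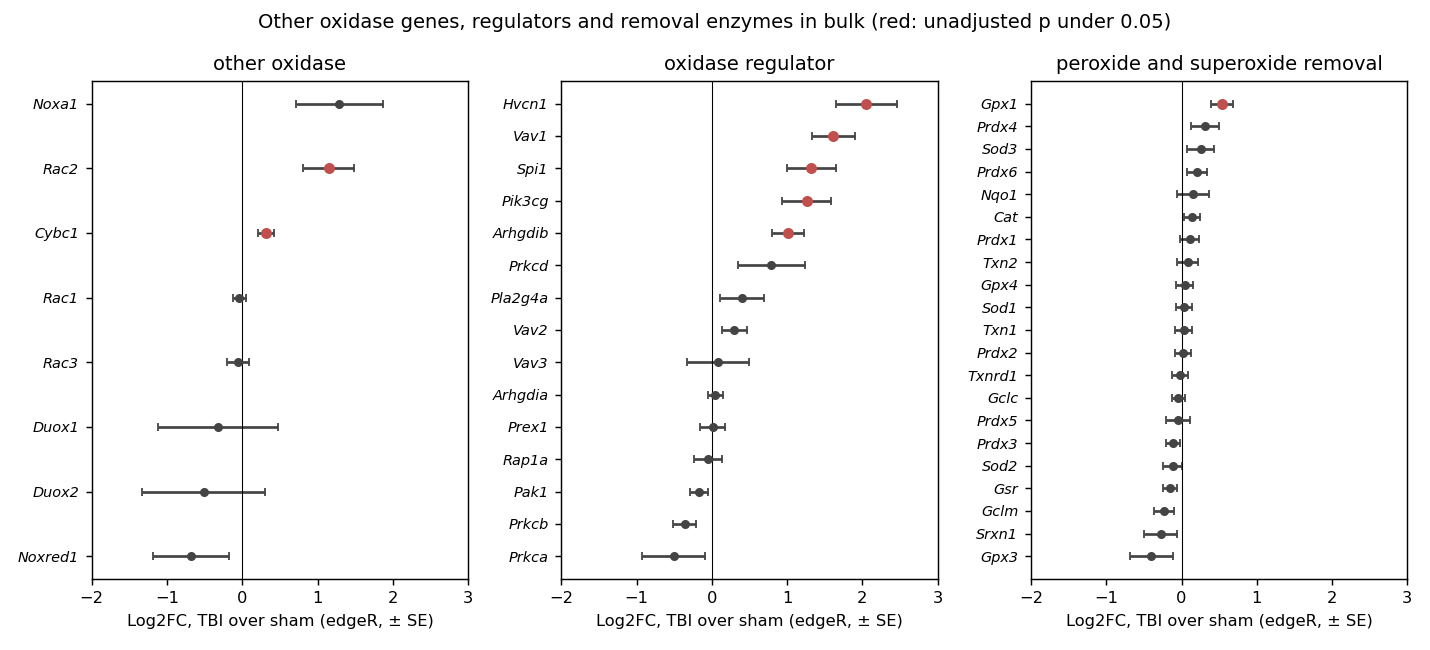
Log2FC of TBI over sham with its SE for the measured genes of the 3 lists, with genes at an unadjusted p under 0.05 in red. Hvcn1, Vav1, Spi1, Pik3cg, Arhgdib, Rac2, Cybc1 and Gpx1 are the red points, and the removal enzymes lie close to 0.

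In the nuclei, 4 matrices held 55863 barcodes, of which 55124 passed the study's filters, with a median of 1647 to 2652 UMIs per nucleus. Library pairs shared 46 to 64 barcodes. Of 22 clusters, made without the genes of the 4 lists, 2 were microglia-like. Cluster 6, led by Inpp5d, Ikzf1 and Hk2, held 2504 nuclei, and cluster 18 held 642 nuclei. Cluster 18 also carried neuronal transcripts, with Slc17a7 at 466 CPM, against 247 CPM in cluster 6 and 527 CPM in cluster 0. Cluster 0 was the largest of the glutamatergic neuron-like clusters. Camk2a was at 1331 CPM in cluster 18, 316 CPM in cluster 6 and 1426 CPM in cluster 0. The summed microglial markers of cluster 18 stood at 40.1% of their level in both microglia-like clusters pooled, against 154% in cluster 6. Levels given for microglia-like nuclei pool both clusters. Microglia-like nuclei were 3.85% of nuclei in the sham rat, 3.85% in the naïve rat, 5.93% in TBI rat 1 and 9.16% in TBI rat 2. No neutrophil marker led a cluster. Of 8 neutrophil markers 4 were detected in microglia-like nuclei, with sums of 37.8 to 52.8 CPM per rat, while S100a8, Elane, Cxcr2 and Mmp8 had 0 UMIs. Of 8 lymphocyte markers 4 were detected, with sums of 26.4 CPM in TBI rat 2 and 2.12 to 6.30 CPM in the other rats, while Cd3e, Cd79a, Cd79b and Ms4a1 had 0 UMIs. Of 5 monocyte markers 4 were in the matrices and 3 were detected, while Ly6c had 0 UMIs. Their sums were 50.4 CPM in the sham rat, 14.6 CPM in the naïve rat, and 37.2 and 19.2 CPM in TBI rats 1 and 2. Levels are CPM of the UMIs summed over a class, and counting intervals are exact Poisson limits at 95%.

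The members had different homes among the classes. Ncf1 was highest in microglia-like nuclei, at 54.8 CPM (185 UMIs, interval 47.2 to 63.3 CPM), where its 4 rats ranged from 29.9 to 76.9 CPM and overlapped with no rat of the next class, astrocyte-like nuclei at 2.59 CPM. Ncf4 was highest there too, at 13.9 CPM (47 UMIs, interval 10.2 to 18.5 CPM), with rats from 6.37 to 20.5 CPM and the next class, oligodendrocyte precursor-like nuclei, at 1.004 CPM from 4 UMIs. Cybb was at 10.1 CPM (34 UMIs, interval 6.98 to 14.1 CPM) in microglia-like nuclei, and its rats there, from 4.80 to 31.0 CPM, overlapped with those of the next class, endothelial cell-like nuclei, at 2.61 CPM from 3 UMIs. In cluster 6 alone Ncf1 was at 82.7 CPM, Ncf4 at 22.5 CPM and Cybb at 11.3 CPM. In glutamatergic neuron-like nuclei Ncf1 was at 0.284 CPM, Ncf4 at 0.0592 CPM and Cybb at 0.970 CPM.

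Cyba was the member with a second home. It was highest in endothelial cell-like nuclei, at 93.8 CPM (108 UMIs, interval 76.9 to 113 CPM), with 83.3 CPM in the sham rat, 123 CPM in the naïve rat, 45.1 CPM in TBI rat 1 and 134 CPM in TBI rat 2. Microglia-like nuclei followed at 51.6 CPM (174 UMIs, interval 44.2 to 59.8 CPM), and the rats of these classes overlapped. In cluster 6 alone Cyba was at 74.3 CPM. Pericyte-like nuclei were at 50.3 CPM, from 8 UMIs (interval 21.7 to 99.0 CPM), and astrocyte-like nuclei at 6.98 CPM. The order of these classes turned with the way nuclei were assigned. With nuclei gated on markers in place of clusters, Cyba was at 135.8 CPM in pericyte-like nuclei (21 UMIs, interval 84.0 to 208 CPM), 105.5 CPM in endothelial cell-like nuclei (interval 83.4 to 132 CPM) and 54.2 CPM in microglia-like nuclei. With at least 1000 UMIs per nucleus it was at 99.1 CPM in endothelial cell-like and 27.8 CPM in microglia-like nuclei. Among the latter this limit favours cluster 18, with a median of 2122 UMIs per nucleus, over cluster 6, with 680 UMIs. In glutamatergic neuron-like nuclei Cyba was at 0.449 CPM, and 37 of those 38 UMIs came from the sham rat and TBI rat 1. The share of matrix entries stored as 0 also differed between rats. It was 11.1% in the sham rat, 15.5% in the naïve rat, 1.63% in TBI rat 1 and 27.4% in TBI rat 2. Its part here and in the other comparisons of rats was not tested. Ncf1 had 1 UMI and Ncf4 had 0 UMIs in endothelial cell-like nuclei, where a count of 0 allows up to 2.61 CPM.

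Each member's level in another class was also expressed as a percentage of its level in microglia-like nuclei, beside the same percentage for the 11 microglial markers in the matrices. These markers spread widely, so they place a member only roughly. In endothelial cell-like nuclei they stood at 1.37% to 14.03%, with a median of 5.69%, and Cyba stood at 182%. In pericyte-like nuclei the markers stood at 0% to 26.5%, with a median of 5.15%, and Cyba at 97.5%. In astrocyte-like nuclei the markers stood at 3.50% to 19.1%, with a median of 5.70%, and Ncf1 stood at 4.73%, Ncf4 at 4.44%, Cyba at 13.5% and Cybb at 20.2%. In glutamatergic neuron-like nuclei the markers stood at 0.532% to 14.2%, with a median of 0.767% and 2.51% for their sum. Cybb stood there at 9.63%, above the median and the sum and below the highest marker, while Cyba stood at 0.872%, Ncf1 at 0.518% and Ncf4 at 0.425%. The part of free RNA in these levels was not tested.

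**Figure D4:**
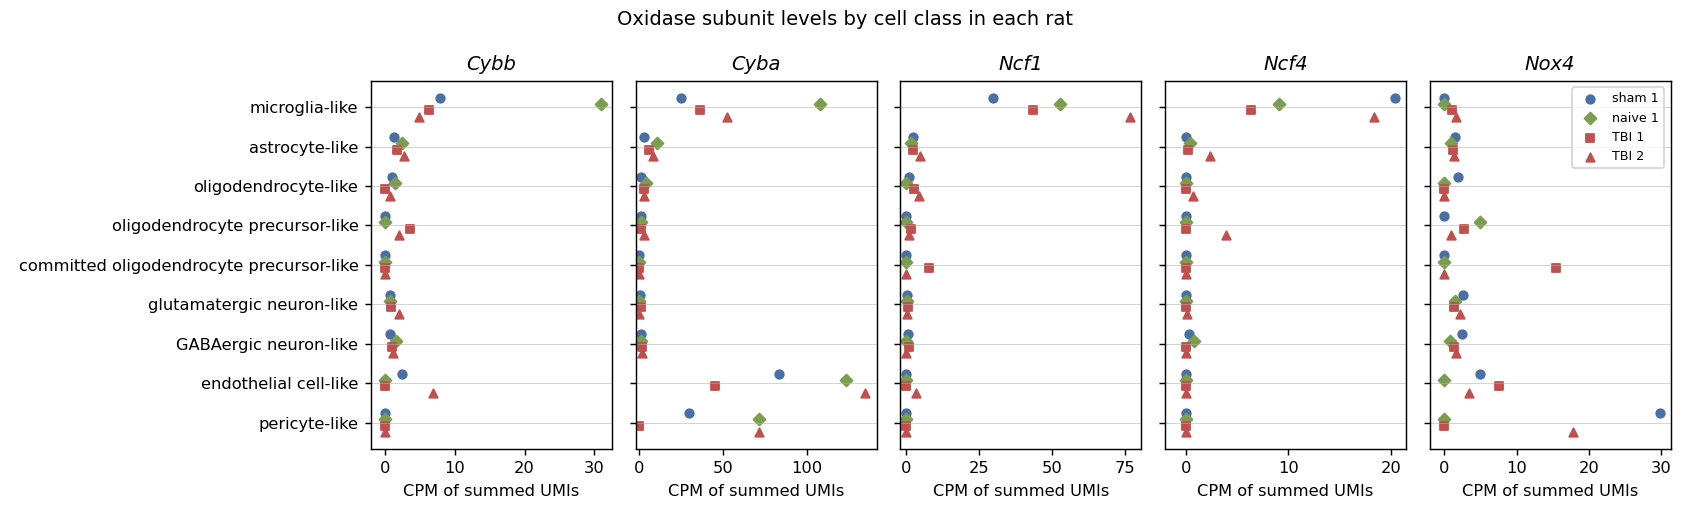
CPM of summed UMIs for each member in 9 cell classes, 1 point per rat. Ncf1 and Ncf4 lie highest in microglia-like nuclei in all 4 rats, Cyba is high in endothelial cell-like as well as microglia-like nuclei, and the Nox4 points above 10 CPM belong to classes with 2 UMIs.

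Few microglia-like nuclei, which held a median of 727 UMIs, had a UMI of any 1 member. Ncf1 was seen in 5.66% of microglia-like nuclei, in 0.305% of oligodendrocyte-like nuclei, which had a median of 957 UMIs, and in 0.0712% of glutamatergic neuron-like nuclei, which had a median of 2258 UMIs. Thinned to 500 UMIs per nucleus these shares were 3.50%, 0.0915% and 0.0119%. Cyba was seen in 5.37% of microglia-like and 19.8% of endothelial cell-like nuclei, and thinned in 3.21% and 2.30%. Thinning was 1 random draw, and the thinned endothelial cell-like share rests on 10 of 435 nuclei. The order of these classes for Cyba turned in that draw, so none is read from the shares. Ncf4 was seen in 1.46% and Cybb in 1.02% of microglia-like nuclei, against 0.0148% and 0.243% in glutamatergic neuron-like nuclei, and thinned in 1.11% and 0.572% against 0.00297% and 0.0534%.

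Nox4 did not follow the phagocyte members. It had 3 UMIs in 3146 microglia-like nuclei (0.889 CPM), which is below its 1.87 CPM in glutamatergic neuron-like nuclei. Among the named classes its levels were 12.6 CPM in pericyte-like nuclei, from 2 UMIs, and 4.34 CPM in endothelial cell-like nuclei, from 5 UMIs, and no class was separated from the next in that order in all rats. By cluster it was highest in cluster 14, at 23.9 CPM (28 UMIs, interval 15.9 to 34.6 CPM), which took no class name. Cluster 14 held 795 nuclei, was led by Sema3c, Pappa2, Gpr139 and Hunk with Igfbpl1 and Dpysl5 in its top 10 genes, and carried the granule neuron factor Prox1 at 679 CPM. Igfbpl1 and Dpysl5 are known from newborn neurons. There Nox4 was at 9.92 CPM in the sham rat, 27.9 CPM in the naïve rat, 33.2 CPM in TBI rat 1 and 21.6 CPM in TBI rat 2, and TBI and control rats overlapped. The sham value rests on 2 UMIs. Nox4 was seen in 3.27% of cluster 14 nuclei, and thinned in 1.26%, against 0.442% and 0.0890% in glutamatergic neuron-like nuclei.

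Cluster 8, a glutamatergic neuron-like cluster led by Rspo2, Rbm44 and Khdrbs3 with Neurod6 among its leading genes, was next with a sizeable count. Nox4 stood there at 6.59 CPM (52 UMIs, interval 4.92 to 8.64 CPM), with 8.78 CPM in the sham rat, 9.97 CPM in the naïve rat, 1.55 CPM in TBI rat 1 and 6.62 CPM in TBI rat 2. Both TBI rats lay below both control rats, a pattern found for 8.51% of 10305 genes there, and the difference did not pass the test (Log2FC -1.21, SE 0.86, edgeR adjusted p = 0.9996). In the other 6 glutamatergic neuron-like clusters Nox4 lay between 0.786 and 3.15 CPM, with the largest, cluster 0, at 0.945 CPM.

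**Figure D5:**
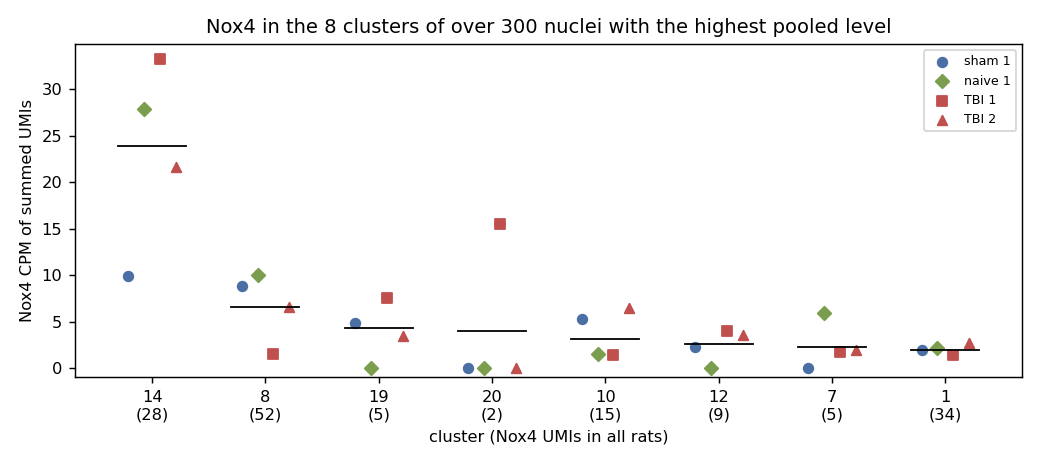
Nox4 CPM of summed UMIs in the 8 clusters of over 300 nuclei with the highest pooled level, 1 point per rat and a bar at the pooled level, with the UMI count in brackets. Cluster 14 lies at 23.9 CPM and cluster 8 at 6.59 CPM, and in the next clusters most levels rest on few UMIs.

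Within microglia-like nuclei no member passed the test between TBI and control. Of 9288 genes tested there 0 passed the FDR of 0.01 in edgeR (0.0%), 213 had an unadjusted p under 0.05, and DESeq2 called 0. Cyba was at 25.2 CPM in the sham rat, 108 CPM in the naïve rat, and 36.1 and 52.0 CPM in TBI rats 1 and 2. Both TBI rats lay between the 2 controls, with a Log2FC of -0.59 (SE 0.56, edgeR adjusted p = 0.9998), which was 0.76 without the naïve rat and -1.28 without the sham rat. In cluster 18 alone, the smaller one, it was 0.19. Ncf1 was at 29.9 CPM in the sham rat, 52.8 CPM in the naïve rat, and 43.5 and 76.9 CPM in TBI rats 1 and 2, which overlapped (Log2FC 0.53, SE 0.41, edgeR adjusted p = 0.9998). It was 0.05 without TBI rat 2. In nuclei with at least 1000 UMIs Ncf1 was at 15.4 and 16.5 CPM in the sham and naïve rats and 25.9 and 36.7 CPM in the TBI rats. Both TBI rats were then higher, as were those of 16.9% of 15556 genes with a UMI, with a Log2FC of 0.91 (edgeR adjusted p = 0.997). In cluster 18 alone Ncf1 was at 16.1 and 7.38 CPM in the sham and naïve rats and 22.8 and 35.2 CPM in the TBI rats, a separation found for 18% of 15307 genes with a UMI there. Cluster 18 had a median of 2122 UMIs per nucleus and cluster 6 one of 680 UMIs. These separations therefore rest in part on the same nuclei, and the limit of 1000 UMIs favours cluster 18, which carried neuronal transcripts. This limit changes the mix of nuclei as well as their depth. In cluster 6, with 147 of the 185 Ncf1 UMIs, the groups overlapped. Ncf1 was there at 38.8 CPM in the sham rat, 97.2 CPM in the naïve rat, and 65.1 and 115 CPM in the TBI rats.

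Ncf4 was at 20.5 CPM in the sham rat, 9.11 CPM in the naïve rat, and 6.37 and 18.4 CPM in TBI rats 1 and 2 (Log2FC -0.28, SE 0.72, edgeR adjusted p = 0.9998). It was 0.46 without the sham rat and 0.24 without TBI rat 1. Cybb did not pass the filter on low counts. It was at 7.87 CPM in the sham rat (5 UMIs), 31.0 CPM in the naïve rat (17 UMIs), and 6.37 and 4.80 CPM in TBI rats 1 and 2 (6 UMIs each). Both TBI rats lay below both controls, a pattern found for 11.2% of 16787 genes with a UMI there, and the naïve rat stood apart. In cluster 6 alone, with 20 of the 34 Cybb UMIs, the groups overlapped. Cybb was there at 2.58 CPM in the sham rat, 50.4 CPM in the naïve rat, and 4.34 and 4.60 CPM in the TBI rats. Over all microglia-like nuclei, with no filter on low counts, Cybb had a Log2FC of -1.74 (SE 0.72, edgeR adjusted p = 0.994). Nox4 had 0 UMIs in both controls and 1 and 2 UMIs in the TBI rats, so no fold is given.

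The naïve rat differed from the sham rat in the level of the microglial markers as well. In microglia-like nuclei the 11 markers summed to 3343 CPM in the sham rat, 5596 CPM in the naïve rat, 2950 CPM in TBI rat 1 and 3703 CPM in TBI rat 2. The summed markers of glutamatergic neurons were 2798, 2677, 3295 and 2755 CPM there in the same order. The 5 perivascular macrophage markers summed to 63.0, 29.2, 8.49 and 56.0 CPM. Their part in the spread between rats was not tested.

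In the other classes Cyba could be tested in endothelial cell-like nuclei (Log2FC -0.17, SE 0.45, edgeR adjusted p = 0.9995) and in astrocyte-like nuclei (Log2FC -0.07, SE 0.60, edgeR adjusted p = 0.978). In glutamatergic neuron-like nuclei, where 19.8% of 14643 genes had both TBI rats above both controls, Cybb was among them with a Log2FC of 0.97 (SE 0.71). Cyba had a Log2FC of 1.26 (SE 1.64) and Nox4 of -0.22 (SE 0.60), and the edgeR adjusted p of all 3 was 0.9996. None of these passed the test.

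Summed over all nuclei of a rat, which brings the make-up of the sample into the level as bulk tissue does, Ncf1 was at 1.11 CPM in the sham rat, 1.29 CPM in the naïve rat, and 2.22 and 4.75 CPM in TBI rats 1 and 2. Both TBI rats lay above both controls, a pattern found for 23.8% of 15959 genes, with a Log2FC of 1.46 (SE 0.49, edgeR adjusted p = 0.982) that was 0.80 without TBI rat 2. Ncf4 was at 0.482, 0.259, 0.277 and 1.46 CPM in the same order of rats (Log2FC 1.13, SE 0.82), and without TBI rat 2 its Log2FC was -0.50. Cyba was at 2.30, 4.22, 3.29 and 5.60 CPM (Log2FC 0.37, SE 0.46), Cybb at 0.907, 1.58, 1.17 and 2.15 CPM (Log2FC 0.34, SE 0.51) and Nox4 between 1.58 and 2.38 CPM (Log2FC -0.17, SE 0.42). The edgeR adjusted p of these 4 was 0.982 to 0.989. For Cybb, 82 of 181 UMIs over all nuclei came from glutamatergic neuron-like nuclei and 34 from microglia-like nuclei.

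Of the other oxidase genes in microglia-like nuclei, Rac1 was at 93.6 CPM, Cybc1 at 18.1 CPM and Rac2 at 6.52 CPM, with Rac1 and Cybc1 passing the filter (Log2FC -0.51 with SE 0.26 and -0.02 with SE 0.51). Nox1 had 11 UMIs there and 565 over all nuclei. Noxa1 had 71 UMIs over all nuclei, of which 33 were in cluster 1, a glutamatergic neuron-like cluster. All 15 regulators were tested in microglia-like nuclei, and Log2FC of Hvcn1, Vav1 and Spi1 were 0.05, -0.24 and -0.28 (SE 0.35, 0.39 and 0.42). The 2 data sets are of different rats, and their Log2FC were not compared by a test.

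Over the sums of 9 named classes in 4 rats (36 sums), the genes whose log2 of CPM + 1 was most like that of a member were Lat2, Tmem119 and Exoc3l2 for Ncf1 (r from 0.918 to 0.964), with Tmem119 a defining microglial gene. For Cyba they were RT1-CE1, a class I antigen-presenting gene, Trim21 and Acsf2 (r from 0.884 to 0.934). For Cybb they were C5ar1, Tmem154 and Cd40 (r from 0.832 to 0.865). For Ncf4 they were 2 genes that carry only clone names and Tent5c (r from 0.891 to 0.919), and for Nox4 Klhl38, Ubap1l and Tbl3 (r from 0.659 to 0.735). The sums share rats, depth and free RNA, so these values are a description.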

How the data were processed

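Bulk RNA-seq of 6 dentate gyri and snRNA-seq of 4 were used. For bulk, the authors mapped reads with kallisto to a Rnor_6.0 reference and deposited estimated counts of 31715 transcripts and log2 CPM of 14166 genes after their own filters. Gene counts were worked back from the deposited log2 CPM, which add 0.5 to each count before scaling, and rounded. Totals were 25121893 to 44649404 estimated counts per library. For nuclei, the authors used Cell Ranger, counting intronic as well as exonic reads, and the deposited UMI counts per gene were kept for nuclei at 500 or more UMIs, 300 or more genes, a log10 of genes per UMI of 0.8, and at most 5% mitochondrial and 2% ribosomal UMIs.

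Bulk gene identifiers were matched to symbols for 13778 genes. Nuclei were clustered in Seurat 5.3.0 (2000 variable features, 25 components, CCA, resolution 0.6). A cluster took a class name from at least 3 markers, with a mean log2 ratio of 0.8 over the other clusters and a margin of 0.5 over the next class. Neuron clusters under that limit were called glutamatergic neuron-like from 3 markers above 100 CPM and Slc17a7 above 3 times Gad1 and Gad2 together, a limit set after the values were seen. Clusters 9 and 14 stayed unnamed. Doublets were kept.

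edgeR 4.0.16 (quasi-likelihood, TMM, Benjamini-Hochberg, FDR 0.01) tested bulk counts and, after filterByExpr, UMI sums per rat, and was tested on simulated data. Alternatives were DESeq2 1.42.0, limma 3.58.1 and those of the closing section. Intervals and floors (3 counts) cover counting error only. The members, gene lists and marker lists were chosen with earlier results of these data known. Named genes were the members, the measured further oxidase genes, the 3 genes of the regulator and removal lists with the smallest bulk p, the 3 genes most like each member, and marker genes where needed. Spi1 and Pik3cg were added as background to the motif and the plot. Promoter sequences are RefSeq's, in build GRCr8, which is not the build of the files.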

Additional observations from a re-analysis of the deposited data

Results flagged for a closer look

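For Cybb the TBI and control rats were separated in opposite directions in 2 cell classes, and neither difference passed the test. In microglia-like nuclei both TBI rats lay below both controls, with a log2 ratio of mean CPM of -1.80 from 34 UMIs (edgeR adjusted p = 0.994 with no filter on low counts), a pattern found for 11.2% of genes there. In glutamatergic neuron-like nuclei both TBI rats lay above both controls, with a log2 ratio of 1.02 from 82 UMIs (edgeR adjusted p = 0.9996), a pattern found for 19.8% of genes there. In microglia-like nuclei the naïve rat stood apart at 31.0 CPM, and in glutamatergic neuron-like nuclei the rats ranged from 0.668 to 2.03 CPM. With nuclei gated on markers, and in cluster 6 alone, the groups overlapped in microglia-like nuclei. The difference between the classes was not tested.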

How the results depend on the processing

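In bulk, DESeq2 called 169 genes and edgeR's likelihood ratio test 160, against 0 by the quasi-likelihood test. Cyba passed by both (Log2FC 1.36 and 1.38), as did Ncf1 (1.46 and 1.48), and so did Hvcn1, Vav1 and Arhgdib. With the replicate number as a block 1 gene was called. The correlations of same-numbered deviations were 0.35, 0.17 and -0.03, and those of differently numbered ones ran from -0.28 to 0.11. With so few libraries these values cannot decide whether the numbers pair the rats. Within spring and autumn the difference was 0.91 and 1.76 for Cyba and 0.94 and 1.33 for Ncf4. Leaving out 1 library gave 0 calls each time and Log2FC of 0.66 to 1.599 for Cybb, 1.14 to 1.55 for Cyba, 0.99 to 1.73 for Ncf1 and 1.04 to 1.22 for Ncf4. The ratio of Cybb to microglial markers ran from -0.21 to 0.87. Rac1 turned to 0.0017 by limma. With 1 library left out Rac1 ran from -0.089 to 0.0036, Rac3 from -0.17 to 0.064, Duox1 from -1.15 to 0.13 and Duox2 from -1.38 to 0.21. Sums of transcripts per gene were not run, because the transcript identifiers could not be matched to gene symbols with the tables used here.

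In microglia-like nuclei 12 genes were called with no filter and 3 to 84 with 1 rat left out, where the lone rat of an arm is assumed to vary like the other arm. Then Cyba ran from -1.28 to 0.76 and Ncf4 from -1.25 to 0.46, and Cyba was 0.19 in cluster 18 alone, an alternative chosen after seeing the data. Over all nuclei the ranges were -0.17 to 0.80 for Cybb, -0.072 to 0.89 for Cyba, -0.50 to 1.90 for Ncf4 and -0.42 to 0.15 for Nox4. With at least 1000 UMIs per nucleus, a limit that favours cluster 18 over cluster 6, Ncf1 was at 26.6 CPM and Ncf4 at 6.37 CPM. Thinning took the share with Ncf1 to 3.50%. The causes were not tested. No paired analysis was possible for nuclei because the groups share fewer than 2 replicate numbers. Depth limits Cybb, Ncf4 and Nox4 in nuclei most, with 34, 47 and 3 UMIs in microglia-like nuclei.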
